A study of Mus musculus with 22 samples.

Results

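CD8α+ αβ T cells that carried NK1.1 were compared with CD8α+ αβ T cells that carried PD1, both sorted from mouse mammary tumours. The libraries were chosen by their titles: 2 of TCRb+CD8a+NK1.1+ cells and 2 of TCRb+CD8a+PD1+ cells, 4 of the 22 libraries sequenced in all. Every population came from pooled tumours of female PyMT mice on the C57BL/6 strain, 20 to 24 weeks old, whose PyMT transgene (a viral oncogene) gives them mammary tumours; the labels do not give its promoter, and no tumour-free tissue is analysed here. Tumours were digested with collagenase and DNase, lymphocytes were enriched on Percoll, and cells were sorted by flow cytometry straight into a lysis reagent before cDNA amplification. A first set of 5 populations, fitted together here, also held TCRb+CD8a+PD1-NK1.1-, TCRb+CD8a-NK1.1+ and TCR-NK1.1+ cells. The titles do not say whether NK1.1 was gated out of the PD1+ sort or PD1 out of the NK1.1+ sort. Tumours were pooled and no label ties a library to an animal. The p-values of the comparison therefore measure only the spread between replicate libraries, which may be technical. That spread was estimated over all 10 libraries of the first set, not over the 4 compared alone.

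NK1.1 is a C-type lectin-like receptor of natural killer (NK) cells that some T cells also carry, among them T cells with innate-like behaviour that kill through receptors coupled to ITAM adaptors, short signalling proteins. PD1 is an inhibitory receptor that T cells display after antigen stimulation, and in tumours it marks CD8 T cells that have met antigen, some of them in a state called exhaustion. The comparison therefore sets 2 kinds of tumour CD8 T cell side by side, one defined by an innate receptor and the other by a receptor of antigen-stimulated T cells.

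Libraries held 11919781 and 12196748 counts in NK1.1+ cells and 15824546 and 11530466 counts in PD1+ cells, so that 3 counts in a library equalled 0.192 to 0.267 CPM. CPM are TMM-scaled counts in each 1000000, so that composition is corrected for. Differences are log2 fold changes ± SE of NK1.1+ over PD1+ cells, and a gene is called when the adjusted p of edgeR's quasi-likelihood test, over all genes, is under 0.05. Of 15727 genes tested, 332 (2.11%) were called, 172 (1.09%) higher and 160 (1.02%) lower in NK1.1+ cells. The 2 pairs of libraries did not overlap in 44.9% of all genes tested (NK1.1+ higher in 21.7% and lower in 23.1%), so separation of the 4 values alone says little about a gene. Leaving out 1 library made the count smaller: 119 and 116 genes were called without NK1.1+ replicate 1 and 2, and 170 and 137 without PD1+ replicate 1 and 2. Of the 332 genes 81 were called in all 4 of these fits, and each called gene below that was not is named with its values. A fit of all 22 libraries together called 201 of the 332, and the genes below that lost their call in it are named too. A difference in bulk RNA cannot tell fewer cells of a type from less RNA per cell. For some lists, counts at an unadjusted p under 0.05 and counts by DESeq2, another test, are given too. DESeq2 called 449 genes higher and 425 lower over all genes. The share of all genes at an unadjusted p under 0.05 is not given, so those counts cannot be set against it.

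**Figure D1:**
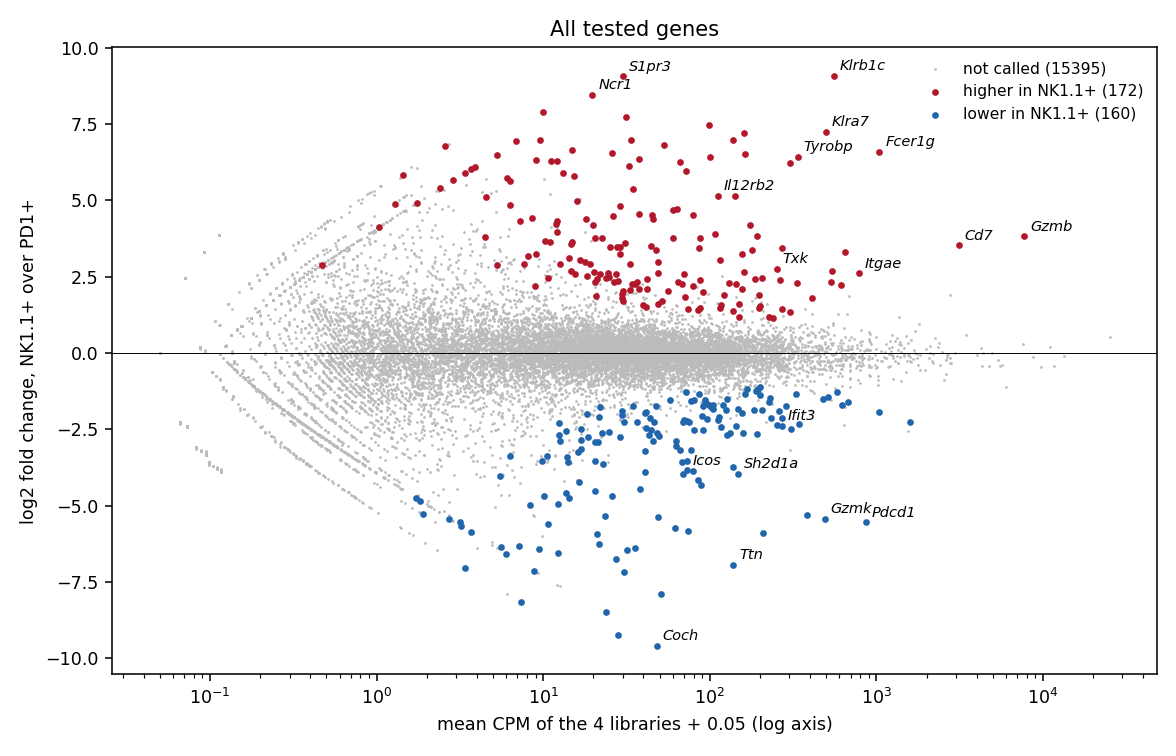
Each point is 1 of the 15727 tested genes, with its mean CPM over the 4 libraries (plus 0.05, log axis) on the x axis and its log2 fold change of NK1.1+ over PD1+ cells on the y axis; genes with no count in 1 population are drawn at their bound. The 172 genes called higher (red) include receptor and adaptor genes of NK cells such as Klrb1c, Klra7, Tyrobp and Fcer1g, and the 160 called lower (blue) include Pdcd1, Gzmk and Icos.

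The sorted markers followed their labels. The NK1.1 gene Klrb1c was at 1105 and 1104 CPM in NK1.1+ cells and 3.14 and 0.801 CPM in PD1+ cells. The PD1 gene Pdcd1 was at 50.4 and 22.4 CPM in NK1.1+ and 1887 and 1517 CPM in PD1+ libraries. Neither pair of libraries overlapped the other, and Pdcd1 was above 0 in the NK1.1+ cells. Both genes were chosen by the sort, so these values check the labels and are not findings.

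The 2 CD8 chain genes gave different values. Cd8a, the chain used for the sort, was at 2646 and 2637 CPM in NK1.1+ cells and 2113 and 1654 CPM in PD1+ cells (0.49 ± 0.39, adjusted p = 0.788). Cd8b1 encodes the β chain that pairs with CD8α on conventional CD8 T cells, and it was at 426 and 483 CPM in NK1.1+ and 2680.3 and 2587 CPM in PD1+ libraries, with both NK1.1+ libraries below both PD1+ libraries. The PD1-NK1.1- CD8α+ libraries held 2345 and 2081 CPM of Cd8b1, near the PD1+ level. The fit over 5 populations did not call Cd8b1 (−2.54 ± 1.06, adjusted p = 0.407), but with only the 3 CD8α+ populations the difference was −2.53 ± 0.17 (adjusted p = 0.000258), and with the 4 libraries alone −2.54 ± 0.16 (adjusted p = 0.000667). Over all alternatives its adjusted p ranged from 8.11e-12 without a filter to 1 without NK1.1+ replicate 1, and its log2 fold change from −2.63 to −2.45.

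Of 16 lineage genes tested 1 was called higher and 1 lower, the median log2 fold change being −0.37 against −0.00 over all genes. Cd7, an immunoglobulin-family receptor gene of T and NK cells, rose in NK1.1+ cells, at 6229 and 5278 CPM in NK1.1+ cells and 601 and 396 CPM in PD1+ cells (3.53 ± 0.34, adjusted p = 0.000854). Cd2, an adhesion receptor gene of T and NK cells, fell, at 306 and 276 CPM in NK1.1+ and 874 and 1036 CPM in PD1+ libraries (−1.71 ± 0.25, adjusted p = 0.00652). Cd3e, a T-cell receptor chain gene, was at 1575 and 1875 CPM in NK1.1+ and 1217 and 1526 CPM in PD1+ libraries and was not called (0.33 ± 0.34, adjusted p = 0.871). Cd4 had no counts in either NK1.1+ library and 0 and 0.712 CPM in the PD1+ libraries. The call of Cd2 was lost without NK1.1+ replicate 1 (adjusted p = 0.0738), NK1.1+ replicate 2 (0.109) or PD1+ replicate 2 (0.0688).

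Markers of other cell types differed between the populations, and their part in the results was not tested. The 23 myeloid genes summed to 224 and 241 CPM in NK1.1+ and 331 and 624 CPM in PD1+ libraries, with 5 and 5 genes at 0 in NK1.1+ and 2 and 2 in PD1+ libraries. Cd74, an antigen presentation gene, accounted for 46.9 and 50.4 CPM in NK1.1+ and 148 and 281 CPM in PD1+ libraries, and the macrophage gene Lyz2 for 0.25 and 1.42 CPM in NK1.1+ and 6.41 and 17.7 CPM in PD1+ libraries. Of the myeloid genes 0 of the 23 tested were called in the fit over 5 populations, with 10 lower and 1 higher at an unadjusted p under 0.05, and DESeq2 called 5 lower and 1 higher. With the 4 libraries alone edgeR called 3 of 14 tested lower and 0 higher. With only the 3 CD8α+ populations it called 2 of 17 lower and 0 higher. The 18 B-cell genes summed to 1398 and 1209 CPM in NK1.1+ and 591 and 462 CPM in PD1+ libraries, while the defining B-cell gene Ms4a1 had 0 counts in NK1.1+ libraries and 0.128 and 0.178 CPM in PD1+ libraries. Of the sum Ighm made up 954 and 825 CPM in NK1.1+ and 219 and 132 CPM in PD1+ libraries. Of 15 tested B-cell genes 3 were called higher and 1 lower, with 6 positive and 9 negative log2 fold changes and a median of −1.52. With the 4 libraries alone 6 were tested, 4 positive and 2 negative, with a median of 1.31. In this list 11 and 10 genes were at 0 in NK1.1+ and 6 and 5 in PD1+ libraries. The 21 epithelial genes summed to 673 and 801 CPM in NK1.1+ and 245 and 382 CPM in PD1+ libraries, with 6 and 7 at 0 in NK1.1+ and 5 and 6 in PD1+ libraries. Of this the adhesion gene Cdh1 made up 511 and 648 CPM in NK1.1+ and 168 and 309 CPM in PD1+ libraries. The epithelial surface gene Epcam was at 22.1 and 31.2 CPM in NK1.1+ and 3.08 and 5.79 CPM in PD1+ libraries (2.60 ± 0.55, adjusted p = 0.0415), a call kept in none of the fits without 1 library (adjusted p 0.106 to 0.303) nor in the fit of all 22 libraries (0.0875). The keratin genes Krt8 and Krt18, which define epithelial cells, lay between 2.05 and 5.25 CPM in every one of the 4 libraries. The 16 stromal genes summed to 5.09 and 18.4 CPM in NK1.1+ and 24.9 and 35.0 CPM in PD1+ libraries, of which the endothelial and leukocyte adhesion gene Pecam1 made up 2.67 and 1.67 CPM in NK1.1+ and 21.7 and 30.4 CPM in PD1+ libraries. Pecam1 was the 1 stromal gene called of 10 tested (−3.58 ± 0.54, adjusted p = 0.00732; lost without NK1.1+ replicate 1, at 0.0546, or 2, at 0.0996), while 6 of the 10 had a positive and 3 a negative log2 fold change, with a median of 1.34. The 9 erythroid and platelet genes summed to 3.00 and 2.68 CPM in NK1.1+ and 2.63 and 3.47 CPM in PD1+ libraries. The invariant NKT and MAIT list (8 genes) summed to 370.0 and 383 CPM in NK1.1+ and 81.0 and 60.7 CPM in PD1+ libraries, mostly Plac8 at 322 and 344 CPM in NK1.1+ and 25.6 and 10.5 CPM in PD1+ libraries. The same list summed to 281 and 362 CPM in the PD1-NK1.1- libraries, so a high sum was not particular to NK1.1+ cells. Zbtb16, the factor gene that defines those cells, was at 1.00 and 0.753 CPM in NK1.1+ libraries and had 0 counts in PD1+ libraries. It was not called (adjusted p = 0.299).

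Genes of the Ly49 and lectin-like receptor families of NK cells were among those called higher in NK1.1+ cells. In mice the Ly49 receptors, encoded by Klra genes, read MHC class I on other cells and inhibit or activate killing. Of 11 Klra genes tested 7 were called higher in NK1.1+ cells and 0 lower, with a median of 6.99, or 5.66 with genes of 0 counts set at their bound. No Klra gene, lectin-like receptor gene or gene of the ITAM list below was lower at an unadjusted p under 0.05 or by DESeq2 (0 in each). Klra7 was at 911 and 1074 CPM in NK1.1+ cells and 10.2 and 2.67 CPM in PD1+ cells (7.25 ± 0.66, adjusted p = 0.000767). Klra1 was at 312 and 326 CPM in NK1.1+ and 2.95 and 1.25 CPM in PD1+ libraries (7.21 ± 0.44, adjusted p = 0.000166). Klra6 was at 299 and 342 CPM in NK1.1+ and 4.68 and 2.23 CPM in PD1+ libraries (6.52 ± 0.57, adjusted p = 0.000648). For these genes both NK1.1+ libraries exceeded both PD1+ libraries, and the PD1+ libraries stayed at or under 10.2 CPM. Reads of this near-identical family may have been split or lost in counting, so single members are uncertain. The PD1-NK1.1- libraries held 52.7 and 105 CPM of Klra7 and the TCR-NK1.1+ libraries 887 and 656 CPM.

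Of 16 lectin-like receptor genes of the Klrb, Klrc and related families, the sort marker gene Klrb1c included, 8 were called higher and 0 lower (median 3.41), and 5 to 7 were without 1 library. Klrb1f, an activating member of the NK1.1 family, was at 78.4 and 65.7 CPM in NK1.1+ cells and 3.08 and 3.03 CPM in PD1+ cells (4.56 ± 0.37, adjusted p = 0.000534). Klrd1, which encodes CD94, was at 944 and 1071 CPM in NK1.1+ and 237 and 189 CPM in PD1+ libraries (2.24 ± 0.35, adjusted p = 0.00917). Klrc2, which encodes NKG2C, the activating partner of CD94, was at 145 and 172 CPM in NK1.1+ and 16.2 and 12.8 CPM in PD1+ libraries (3.45 ± 0.37, adjusted p = 0.00138). The PD1+ libraries thus also held CD94 message, far above their Klra levels, without overlapping the NK1.1+ libraries. Klrd1 lost its call without NK1.1+ replicate 2 (adjusted p = 0.0693), PD1+ replicate 1 (0.0534) or PD1+ replicate 2 (0.1). Klrk1, the gene of the activating receptor NKG2D, was at 392 and 389 CPM in NK1.1+ and 262 and 165 CPM in PD1+ libraries and was not called (0.87 ± 0.33, adjusted p = 0.327).

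Among 13 other receptor genes of NK cells 4 were called higher and 0 lower (1 at an unadjusted p under 0.05 and 0 by DESeq2), with 6 positive and 7 negative log2 fold changes and a median of −0.49. The sign of this median depended on which genes passed the filter. With the 4 libraries alone 8 were tested, 6 positive and 2 negative, with a median of 1.87. With only the 3 CD8α+ populations 10 were tested, 6 positive and 4 negative, with a median of 1.055. Cd244a, which encodes the SLAM-family receptor 2B4, was at 886 and 989 CPM in NK1.1+ cells and 178 and 115 CPM in PD1+ cells (2.68 ± 0.32, adjusted p = 0.00296). Fcgr3, the gene of the low-affinity Fc receptor that binds antibody-coated targets, was at 51.1 and 32.9 CPM in NK1.1+ and 3.08 and 3.12 CPM in PD1+ libraries (3.76 ± 0.40, adjusted p = 0.00138). Ncr1, the NKp46 gene, was at 17.2 and 61.5 CPM in NK1.1+ libraries and had 0 counts in PD1+ libraries, at least 352-fold higher (adjusted p = 0.00417), against 1682 and 1055 CPM in the TCR-NK1.1+ libraries. Cd226, an activating receptor gene for nectin-family ligands, was at 214 and 482 CPM in NK1.1+ and 53.1 and 73.9 CPM in PD1+ libraries (2.46 ± 0.42, adjusted p = 0.0143), a call lost without NK1.1+ replicate 2 (adjusted p = 0.111), PD1+ replicate 1 (0.133) or PD1+ replicate 2 (0.0741). Its inhibitory counterpart Tigit was at 476 and 306 CPM in NK1.1+ and 816 and 523 CPM in PD1+ libraries and was not called (−0.77 ± 0.39, adjusted p = 0.533).

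**Figure D2:**
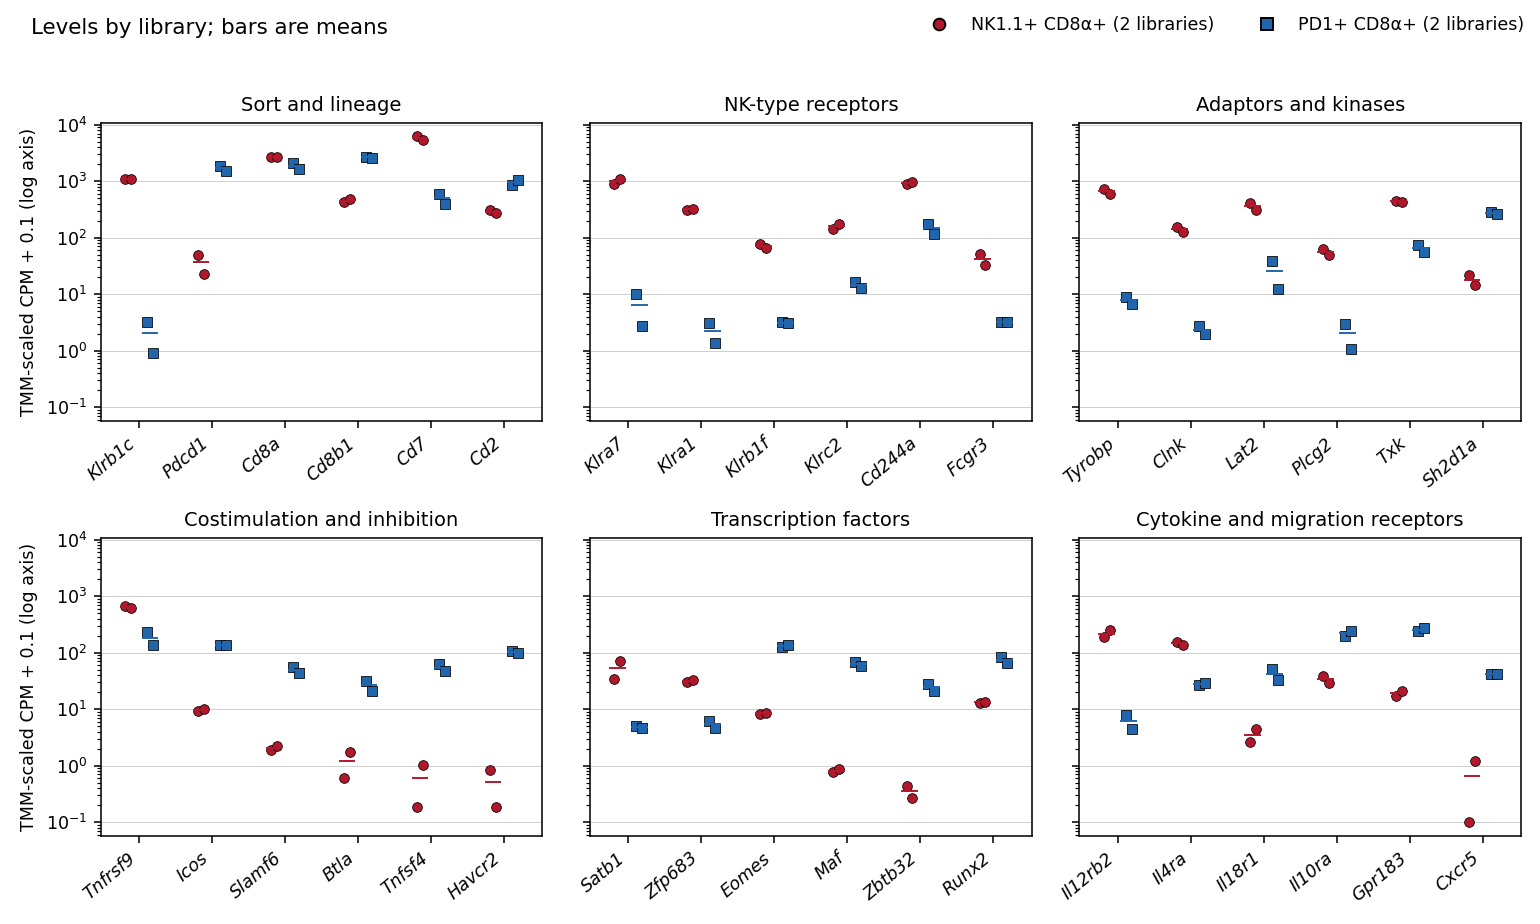
Each marker is the TMM-scaled CPM (plus 0.1, log axis) of 1 gene in 1 library, with NK1.1+ libraries as red circles left of PD1+ libraries as blue squares, and short bars for the mean of 2 libraries. The NK-cell receptor genes drawn lay high in NK1.1+ libraries, the genes of the costimulation and inhibition panel other than Tnfrsf9 lay high in PD1+ libraries, and Cd8b1 was lower in both NK1.1+ libraries although Cd8a was not.

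The signalling machinery differed too. NK-type receptors signal through the ITAM adaptors FcRγ and DAP12 and kinases that follow them, whereas the T-cell receptor uses CD3 chains and the scaffold LAT. Of 16 adaptor and kinase genes of the ITAM pathway 8 were called higher and 0 lower in NK1.1+ cells, with a median of 3.05. Tyrobp, the DAP12 gene, was at 737 and 594 CPM in NK1.1+ cells and 8.97 and 6.59 CPM in PD1+ cells (6.41 ± 0.44, adjusted p = 0.000166). Fcer1g, the FcRγ gene, was at 2198 and 1932 CPM in NK1.1+ and 31 and 12.1 CPM in PD1+ libraries (6.58 ± 0.55, adjusted p = 0.00057). Both PD1+ libraries held little of either message, and the populations did not overlap.

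Further along the same pathway, Clnk, an adaptor gene of the SLP-76 family, was at 156 and 126 CPM in NK1.1+ cells and 2.63 and 1.87 CPM in PD1+ cells (5.95 ± 0.43, adjusted p = 0.000196). Lat2, a scaffold gene that resembles Lat and serves non-T lymphocytes and myeloid cells, was at 412 and 309 CPM in NK1.1+ and 38.3 and 12.1 CPM in PD1+ libraries (3.83 ± 0.55, adjusted p = 0.0061). Plcg2, the phospholipase C gene of B and NK cells, was at 63.7 and 48.4 CPM in NK1.1+ and 2.88 and 0.979 CPM in PD1+ libraries (4.82 ± 0.67, adjusted p = 0.00531). In each of these 3 genes the lower NK1.1+ library lay above the higher PD1+ library. The Src-family kinase gene Fgr was at 195 and 129 CPM in NK1.1+ and 13.1 and 10.5 CPM in PD1+ libraries (3.77 ± 0.36). Its relative Lyn was at 69.3 and 93.5 CPM in NK1.1+ and 10.8 and 3.29 CPM in PD1+ libraries (3.52 ± 0.60). The exchange factor gene Vav3 was at 36.8 and 38.2 CPM in NK1.1+ and 5.26 and 7.21 CPM in PD1+ libraries (2.59 ± 0.35). The 2 populations did not overlap for any of them. Lyn lost its call without NK1.1+ replicate 2 (adjusted p = 0.0779) or PD1+ replicate 2 (0.0741), and Vav3 without PD1+ replicate 1 (0.0632). The other 6 genes of the list, with Klra1, Klra6, Klra7, Klrb1f, Klrc2, Cd244a, Fcgr3 and Ncr1, kept an adjusted p under 0.05 when each of the 4 libraries was left out in turn. The fit of all 22 libraries ended the calls of Klrb1f (adjusted p = 0.0738) and Vav3 (0.107).

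T-cell receptor signalling genes were called in both directions, 1 of 28 higher and 4 lower (4 and 9 at an unadjusted p under 0.05), with a median of −0.20. Txk, a Tec-family kinase gene of T and NK cells, rose to 444 and 436 CPM in NK1.1+ libraries, against 74.2 and 54.8 CPM in PD1+ libraries (2.77 ± 0.25, adjusted p = 0.000767). Sh2d1a, which encodes the adaptor SAP of SLAM receptors, fell to 21.4 and 14.2 CPM in NK1.1+ libraries, against 288 and 265 CPM in PD1+ libraries (−3.96 ± 0.39, adjusted p = 0.000885). The scaffold gene Lat was at 172 and 204 CPM in NK1.1+ and 427 and 517 CPM in PD1+ libraries (−1.33 ± 0.27, adjusted p = 0.0333), opposite in direction to its relative Lat2. Lat is the scaffold that T-cell receptor signals pass through. Sit1, an adaptor gene that dampens T-cell receptor signals, was at 13.2 and 12.5 CPM in NK1.1+ and 62 and 77.9 CPM in PD1+ libraries (−2.45 ± 0.34, adjusted p = 0.00565). Ubash3a, a phosphatase gene with a like role, was at 77 and 107 CPM in NK1.1+ and 225 and 237 CPM in PD1+ libraries (−1.33 ± 0.29, adjusted p = 0.049). Txk and Sh2d1a kept their calls in all 4 fits without 1 library, Lat (adjusted p 0.116 to 0.367) and Ubash3a (0.171 to 0.481) in none, and Sit1 lost it without NK1.1+ replicate 1 (0.0677) or 2 (0.0828). The fit of all 22 libraries ended the calls of Sh2d1a (0.0605) and Sit1 (0.317).

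Of 27 genes of lytic granules and their control 4 were called higher and 2 lower (median 0.32). Gzmb, the gene of the caspase-cleaving granzyme B, was at 16264 and 12522 CPM in NK1.1+ cells and 1285 and 749.7 CPM in PD1+ cells (3.82 ± 0.44, adjusted p = 0.00209). Gzmc was at 232 and 316 CPM in NK1.1+ and 1.03 and 3.38 CPM in PD1+ libraries (6.99 ± 0.70, adjusted p = 0.000944). Gzmf was at 21.8 and 17.6 CPM in NK1.1+ and 0.128 and 0 CPM in PD1+ libraries, with 2 counts in all in PD1+ libraries, so that the ratio of 265 has a counting interval of 72.9 to 2194 (adjusted p = 0.00296). Gzmc and Gzmf belong to a cluster of near-identical granzyme genes, so reads may be split among its members. Gzmk ran the other way, at 27.9 and 16.3 CPM in NK1.1+ and 900.5 and 1011 CPM in PD1+ libraries (−5.43 ± 0.51, adjusted p = 0.00078). Gzma, the most abundant tryptase-like granzyme gene of NK cells, was at 4972 and 3757 CPM in NK1.1+ and 1447 and 894 CPM in PD1+ libraries without overlap and missed the threshold (1.90 ± 0.43, adjusted p = 0.0621). It passed with only the 3 CD8α+ populations (adjusted p = 0.0176) or the 4 libraries alone (0.00713), and its adjusted p ranged from 1.93e-07 without a filter to 0.414 without PD1+ replicate 2. The perforin gene Prf1 ran the other way, at 102 and 85.4 CPM in NK1.1+ and 233 and 187 CPM in PD1+ libraries without overlap, and missed the threshold too (−1.16 ± 0.33, adjusted p = 0.159). It passed, as lower, with only the 3 CD8α+ populations (adjusted p = 0.0459), the 4 libraries alone (0.0272), no filter on low counts or DESeq2 (0.0192), and its adjusted p reached 0.714 without NK1.1+ replicate 2.

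The related serpin genes Serpinb6b and Serpinb6a, whose products inhibit proteases, differed in direction: Serpinb6b was at 326 and 332 CPM in NK1.1+ and 156 and 143 CPM in PD1+ libraries (1.14 ± 0.23, adjusted p = 0.0345). Serpinb6a was at 51.6 and 46.6 CPM in NK1.1+ and 154 and 163 CPM in PD1+ libraries (−1.69 ± 0.28, adjusted p = 0.0115). Neither kept its call without 1 library (adjusted p 0.244 to 0.383 for Serpinb6b and 0.075 to 0.168 for Serpinb6a), while Gzmb, Gzmc, Gzmf and Gzmk kept theirs in all 4 such fits.

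Several genes of receptors and factors of antigen-stimulated T cells were lower in NK1.1+ cells. Of 19 genes of inhibitory receptors and TOX factors 6 were called lower, the sort marker gene Pdcd1 among them, and 0 higher (2 at an unadjusted p under 0.05 and 1 by DESeq2), with a median of −0.65. Havcr2, the TIM-3 gene, was at 0.75 and 0.0836 CPM in NK1.1+ cells and 105 and 96.3 CPM in PD1+ cells (−7.88 ± 1.45, adjusted p = 0.0208). Btla, whose inhibitory product binds HVEM, was at 0.5 and 1.67 CPM in NK1.1+ and 31.9 and 20.8 CPM in PD1+ libraries (−4.59 ± 0.66, adjusted p = 0.00621). Ctla4, which competes with CD28 for its ligands, was at 7.67 and 10.4 CPM in NK1.1+ and 182 and 138 CPM in PD1+ libraries (−4.15 ± 0.41, adjusted p = 0.000885). Neither NK1.1+ library came near a PD1+ library for these genes. Lag3, another inhibitory receptor gene, was at 61.8 and 78 CPM in NK1.1+ and 129.5 and 189 CPM in PD1+ libraries and was not called (−1.19 ± 0.56, adjusted p = 0.492), but passed with the 4 libraries alone (0.0484), the lowest adjusted p of a range up to 1.

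Among the TOX factors, Tox, a gene linked to long-term antigen stimulation, lay at 364 and 304 CPM in NK1.1+ and 1079 and 952 CPM in PD1+ libraries (−1.60 ± 0.25, adjusted p = 0.00863), against 199.8 and 151 CPM in the PD1-NK1.1- libraries. Tox levels in the NK1.1+ libraries thus lay above those of the PD1-NK1.1- libraries and below those of the PD1+ libraries. Tox2 had 0 counts in NK1.1+ libraries and 19.7 and 15.2 CPM in PD1+ libraries, at least 139-fold lower (adjusted p = 0.0454). Tox (adjusted p 0.0532 to 0.146), Tox2 (0.125 to 0.268) and Havcr2 (0.0625 to 0.19) lost their calls in each of the 4 fits without 1 library, and Btla without NK1.1+ replicate 1 (0.0553). Havcr2 (0.0646) and Btla (0.551) also lost theirs in the fit of all 22 libraries.

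Of 22 costimulatory receptor and ligand genes 5 were called lower and 1 higher (median −1.24). Icos, a CD28-family costimulator gene, was at 9.17 and 9.87 CPM in NK1.1+ cells and 136 and 138 CPM in PD1+ cells (−3.84 ± 0.45, adjusted p = 0.00231). Slamf6, a SLAM-family receptor gene, was at 1.75 and 2.09 CPM in NK1.1+ and 56.2 and 43.4 CPM in PD1+ libraries (−4.69 ± 0.55, adjusted p = 0.00244). Cd28 was at 17.9 and 19.6 CPM in NK1.1+ and 838 and 655 CPM in PD1+ libraries (−5.31 ± 0.35, adjusted p = 0.000166). Cd28 encodes the receptor that gives T cells their main costimulatory signal, and for all 3 genes both NK1.1+ libraries lay below both PD1+ libraries. Tnfsf4, the OX40 ligand gene, was at 0.0834 and 0.92 CPM in NK1.1+ and 61.5 and 46.8 CPM in PD1+ libraries (−6.73 ± 1.00, adjusted p = 0.00704). Tnfsf11, which encodes RANKL, had 0 counts in NK1.1+ libraries and 8.84 and 14.9 CPM in PD1+ libraries, at least 94.7-fold lower (adjusted p = 0.0459). The costimulator gene Tnfrsf9, which encodes 4-1BB, ran against the others, at 664 and 622 CPM in NK1.1+ and 231 and 134 CPM in PD1+ libraries (1.82 ± 0.35, adjusted p = 0.025). Cd28, Icos, Slamf6 and Tnfsf4 kept their calls in all 4 fits without 1 library. Tnfsf11 did in none (adjusted p 0.0909 to 0.269), and Tnfrsf9 lost its call without NK1.1+ replicate 1 (0.151), NK1.1+ replicate 2 (0.118) or PD1+ replicate 2 (0.238). In the fit of all 22 libraries Slamf6 (0.154) and Tnfsf11 (0.13) were not called.

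Transcription factor genes were called in both directions, 2 of 45 higher and 8 lower, with a median of −0.47. Maf, a factor gene of stimulated and follicular helper T cells, was at 0.667 and 0.753 CPM in NK1.1+ cells and 68.8 and 57.9 CPM in PD1+ cells (−6.46 ± 0.87, adjusted p = 0.00489). Zbtb32, a zinc-finger repressor gene of stimulated lymphocytes, was at 0.334 and 0.167 CPM in NK1.1+ and 27.8 and 20.8 CPM in PD1+ libraries (−6.55 ± 0.97, adjusted p = 0.00685). Eomes, the T-box factor gene of memory and NK cells, was at 8.09 and 8.53 CPM in NK1.1+ and 124 and 134 CPM in PD1+ libraries (−3.95 ± 0.36, adjusted p = 0.00074). For each of the 3, both NK1.1+ libraries lay far below both PD1+ libraries. Runx2, a runt-family factor gene, was at 12.8 and 13.3 CPM in NK1.1+ and 84.9 and 65.6 CPM in PD1+ libraries (−2.53 ± 0.36, adjusted p = 0.0061). Bcl11b, a T-cell commitment factor gene, was at 43.3 and 36.5 CPM in NK1.1+ and 198 and 168 CPM in PD1+ libraries (−2.20 ± 0.42, adjusted p = 0.0246). The other 3 lower genes were Tcf7 (adjusted p 0.076 to 0.41 in the fits without 1 library), Rora (0.0295 to 0.343) and Bhlhe40 (0.162 to 0.289). Without NK1.1+ replicate 1 or 2 the list held 1 and 1 lower calls, and without PD1+ replicate 1 or 2 it held 5 and 4.

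On the higher side, Zfp683, the Hobit gene of tissue-resident lymphocytes, was at 29.9 and 32.1 CPM in NK1.1+ and 6.09 and 4.54 CPM in PD1+ libraries (2.54 ± 0.44, adjusted p = 0.0145). The chromatin organiser gene Satb1 was at 33.8 and 72.2 CPM in NK1.1+ and 5 and 4.45 CPM in PD1+ libraries (3.48 ± 0.50, adjusted p = 0.0061), whereas the PD1-NK1.1- libraries held 243 and 143 CPM, above both populations. Ikzf2, the Helios gene, was at 328 and 340.1 CPM in NK1.1+ and 129 and 90.5 CPM in PD1+ libraries without overlap and was not called (1.61 ± 0.42, adjusted p = 0.108), but passed with only the 3 CD8α+ populations (adjusted p = 0.00634) or the 4 libraries alone (0.00910). Its adjusted p ranged from 0.000317 without a filter to 0.614 without PD1+ replicate 2. Eomes kept its call in all 4 fits without 1 library and lost it in the fit of all 22 libraries (adjusted p = 0.341), as did Runx2 (0.489) and Zfp683 (0.314). Zfp683 (adjusted p 0.101 to 0.194) and Bcl11b (0.0816 to 0.243) kept it in none, Satb1 lost it without PD1+ replicate 2 (0.0598), and Maf, Zbtb32 and Runx2 lost it without NK1.1+ replicate 1 (0.0577, 0.0645 and 0.0786) or replicate 2 (0.056, 0.0972 and 0.0786).

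Cytokine receptor genes split, 2 of 30 called higher and 3 lower (median −0.27). Il12rb2, the signalling chain gene of the interleukin 12 receptor, was at 186 and 248 CPM in NK1.1+ cells and 7.82 and 4.27 CPM in PD1+ cells (5.15 ± 0.58, adjusted p = 0.00209). Il4ra, the interleukin 4 receptor gene, was at 156 and 136 CPM in NK1.1+ and 27 and 29 CPM in PD1+ libraries (2.38 ± 0.35, adjusted p = 0.00713). Il12rb2 and Il4ra were the receptors with both NK1.1+ libraries above both PD1+ libraries and a call. Il18r1, the gene of the receptor for interleukin 18, was lower, at 2.5 and 4.26 CPM in NK1.1+ and 51.7 and 32.9 CPM in PD1+ libraries (−3.64 ± 0.43, adjusted p = 0.00243). Il10ra was at 38.5 and 29.3 CPM in NK1.1+ and 199.7 and 238 CPM in PD1+ libraries (−2.69 ± 0.46, adjusted p = 0.0135). Il7r was at 3.84 and 1.25 CPM in NK1.1+ and 143 and 148 CPM in PD1+ libraries (−5.83 ± 0.57, adjusted p = 0.000885). Receptor genes for interleukins 12 and 18, cytokines that act together on NK and T cells, differed in opposite directions. Il12rb2, Il18r1 and Il7r kept their calls in all 4 fits without 1 library, Il4ra lost it without NK1.1+ replicate 1 (adjusted p = 0.0539), PD1+ replicate 1 (0.0746) or 2 (0.0719), and Il10ra without NK1.1+ replicate 1 (0.103), NK1.1+ replicate 2 (0.169) or PD1+ replicate 2 (0.0719).

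Of 20 cytokine and chemokine genes 2 were called higher and 1 lower (median −0.19). Xcl1, a chemokine gene for cross-presenting dendritic cells, was at 1184 and 1172 CPM in NK1.1+ cells and 119 and 121 CPM in PD1+ cells (3.30 ± 0.45, adjusted p = 0.00508). Csf2, the GM-CSF gene, was at 27.5 and 23.2 CPM in NK1.1+ and 2.69 and 3.21 CPM in PD1+ libraries (3.10 ± 0.47, adjusted p = 0.00839). Ifng, the interferon-γ gene, was lower, at 41.1 and 63.6 CPM in NK1.1+ and 311 and 353 CPM in PD1+ libraries (−2.66 ± 0.34, adjusted p = 0.00417). Xcl1 kept its call in all 4 fits without 1 library, Csf2 in none (adjusted p 0.0528 to 0.102, and 0.247 with all 22 libraries), and Ifng lost it without NK1.1+ replicate 1 (0.053).

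Of 22 genes of a list of chemokine and other surface receptors 4 were called lower and 1 higher in NK1.1+ cells, with a median of −2.12, or −2.02 with genes of 0 counts at their bound. Not all of the list are receptors of migration, P2rx7 below being 1 that is not. With the 4 libraries alone 17 were tested, 7 called lower and 1 higher, with a median of −1.04. Gpr183, the oxysterol receptor gene that positions lymphocytes at follicle borders, was at 17 and 21.1 CPM in NK1.1+ cells and 243 and 267 CPM in PD1+ cells (−3.74 ± 0.31, adjusted p = 0.000538). Cxcr5, the B-cell follicle homing receptor gene, was at 0 and 1.09 CPM in NK1.1+ and 42.4 and 42.5 CPM in PD1+ libraries (−6.26 ± 1.30, adjusted p = 0.0371). Both genes were low in both NK1.1+ libraries. The inflammatory chemokine receptor gene Ccr2 was at 11.3 and 9.95 CPM in NK1.1+ and 102 and 151 CPM in PD1+ libraries (−3.57 ± 0.55, adjusted p = 0.00863). The gene called higher was P2rx7, an ion channel gene opened by extracellular ATP, at 44.5 and 30.9 CPM in NK1.1+ and 2.76 and 1.25 CPM in PD1+ libraries (4.21 ± 0.58, adjusted p = 0.00531). Gpr183 and P2rx7 kept their calls in all 4 fits without 1 library. The call of Cxcr5 was kept only without NK1.1+ replicate 2 (adjusted p 0.0398 to 0.155 over the 4 fits, and 0.139 with all 22 libraries) and that of Ccr2 was lost without either NK1.1+ library (0.0858 and 0.108).

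Integrins and genes of tissue retention were called higher in 5 of 24 and lower in 1, with a median of 0.32; without 1 library 3 to 4 were higher and 0 lower. Itgae, the CD103 gene, was at 1416 and 1277 CPM in NK1.1+ cells and 181 and 261 CPM in PD1+ cells (2.61 ± 0.35, adjusted p = 0.00489). Itga1, the collagen receptor gene CD49a, was at 237 and 316 CPM in NK1.1+ and 36 and 51.6 CPM in PD1+ libraries (2.66 ± 0.47, adjusted p = 0.0167). Itgax, the CD11c gene of dendritic cells and some lymphocytes, was at 99 and 147 CPM in NK1.1+ and 5.19 and 4.18 CPM in PD1+ libraries (4.70 ± 0.49, adjusted p = 0.00127). Any part of other cell types in its level was not tested. For these 3 integrin genes the NK1.1+ libraries lay above the PD1+ libraries without overlap. Gpr34, a receptor gene for lysophosphatidylserine, was at 144 and 259 CPM in NK1.1+ and 19.5 and 7.21 CPM in PD1+ libraries (3.91 ± 0.49, adjusted p = 0.00365). Itga2, another integrin gene, was called higher too (3.81, adjusted p = 0.0215). It did not keep that call in all 4 fits without 1 library, nor in the fit of all 22 libraries (adjusted p = 0.0652). Itga4, whose product pairs into the VCAM-1 receptor, was lower at 70.4 and 114 CPM in NK1.1+ and 502 and 537 CPM in PD1+ libraries (−2.49 ± 0.48, adjusted p = 0.0267). The chemokine receptor gene Cxcr6 was not called (−0.88, adjusted p = 0.206). It passed, as lower, with the 4 libraries alone (0.0180) or DESeq2 (0.0393), but not with the 3 CD8α+ populations (0.0792) or all 22 libraries (0.348). Of the 24 genes 16 had a positive and 8 a negative log2 fold change. Itgae, Itgax and Gpr34 kept their calls in all 4 fits without 1 library, and Itga1 (adjusted p 0.055 to 0.145) and Itga4 (0.0774 to 0.283) in none.

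Genes of egress and lymphoid homing were called lower in 6 of 21 and higher in 1, with a median of 0.03; without 1 library 2 to 3 were lower and 1 to 2 higher. Ccr7, the lymph node homing receptor gene, was at 0.25 and 0.585 CPM in NK1.1+ cells and 27.8 and 13.7 CPM in PD1+ cells (−5.61 ± 0.73, adjusted p = 0.00417). Dapl1 was at 0.0834 and 0.334 CPM in NK1.1+ and 20.9 and 16.1 CPM in PD1+ libraries (−6.41 ± 0.87, adjusted p = 0.00513). Ly6a, the Sca-1 gene, was at 11.7 and 2.34 CPM in NK1.1+ and 462 and 364 CPM in PD1+ libraries (−5.88 ± 1.17, adjusted p = 0.0312). The 3 genes were low in both NK1.1+ libraries. The lower calls also included Ly6c2 (−1.84, adjusted p = 0.0116) and Cd44 (−1.61, adjusted p = 0.0129). Neither kept its call in all 4 fits without 1 library, and Ly6c2 lost it in the fit of all 22 libraries (adjusted p = 0.272). Of the 6 lower calls only those of Ccr7 and of S1pr1, given next, are of receptor genes for egress or lymph node homing. S1pr1, whose product guides lymphocytes out of tissue, stood at 7.25 and 2.84 CPM in NK1.1+ and 46.5 and 28.9 CPM in PD1+ libraries (−2.90 ± 0.48, adjusted p = 0.0124). S1pr3, of the same receptor family, was at 61.5 and 58.2 CPM in NK1.1+ libraries and had 0 counts in PD1+ libraries, at least 535-fold higher (adjusted p = 0.000885). S1pr3 and Ccr7 kept their calls in all 4 fits without 1 library, though Ccr7 lost it in the fit of all 22 libraries (adjusted p = 0.0699), Ly6a in none (adjusted p 0.0558 to 0.208), Dapl1 lost it without NK1.1+ replicate 1 (0.057), and S1pr1 without NK1.1+ replicate 2 (0.109) or PD1+ replicate 1 (0.0633).

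Many interferon-stimulated genes were lower in NK1.1+ cells. These genes are switched on through receptors for type I interferon or interferon-γ and the STAT and IRF factors that follow, many of them through a promoter element, the interferon-stimulated response element, that joins GAAA repeats. In all, 12 of 32 type I genes were called lower and 0 higher (1 at an unadjusted p under 0.05 and 0 by DESeq2), 31 of 32 had a negative log2 fold change and the median was −1.23. In 30 of 32 both NK1.1+ libraries lay below both PD1+ libraries, which held for 23.1% of all genes tested. Of 27 interferon-γ and antigen presentation genes 5 were called lower and 0 higher (1 at an unadjusted p under 0.05 and 1 by DESeq2), with a median of −0.53.

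Ifit3, an antiviral gene of the family of RNA-binding IFIT proteins, was at 107 and 67.1 CPM in NK1.1+ cells and 478 and 432 CPM in PD1+ cells (−2.39 ± 0.31, adjusted p = 0.00411). Its relative Ifit1 was at 117 and 84.1 CPM in NK1.1+ and 422 and 461 CPM in PD1+ libraries (−2.14 ± 0.32, adjusted p = 0.00724). In both genes the NK1.1+ libraries lay below the PD1+ libraries without overlap. Mx1, a dynamin-like antiviral GTPase gene, was at 45.2 and 46.2 CPM in NK1.1+ and 144 and 169 CPM in PD1+ libraries (−1.78 ± 0.27, adjusted p = 0.00752). Rtp4, a receptor transporter gene, was at 89.3 and 70.5 CPM in NK1.1+ and 279 and 301 CPM in PD1+ libraries (−1.86 ± 0.28, adjusted p = 0.0082). The PD1-NK1.1- libraries held 227 and 273 CPM of Ifit3 and the TCR-NK1.1+ libraries 86.9 and 66.2 CPM. Levels of Ifit3 in NK1.1+ cells were thus near those of TCR-NK1.1+ cells, with PD1-NK1.1- cells between NK1.1+ and PD1+ cells.

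Among GTPases that interferon-γ induces, Gbp7 was at 303 and 367 CPM in NK1.1+ cells and 904 and 734 CPM in PD1+ cells (−1.29 ± 0.24, adjusted p = 0.0238). Gbp3 was at 37.3 and 40.6 CPM in NK1.1+ and 117 and 113 CPM in PD1+ libraries (−1.56 ± 0.31, adjusted p = 0.0317). Irgm1 was at 126 and 114 CPM in NK1.1+ and 249.6 and 293 CPM in PD1+ libraries (−1.18 ± 0.24, adjusted p = 0.0331). In all 3 the NK1.1+ libraries lay below the PD1+ libraries. B2m, the light chain gene of MHC class I, was at 8142 and 8306 CPM in NK1.1+ and 11354 and 11280.5 CPM in PD1+ libraries and was not called (−0.46 ± 0.25, adjusted p = 0.598). The calls depended on single libraries. Without NK1.1+ replicate 1 or 2 the type I list held 3 and 0 calls, and without PD1+ replicate 1 or 2 it held 6 and 2, while 31 of 32 members stayed negative in each of these 4 fits (medians −1.43 to −1.20). Ifit3 lost its call without NK1.1+ replicate 2 (adjusted p = 0.0503), as did Ifit1 (0.109), and Mx1 and Rtp4 lost theirs without NK1.1+ replicate 1 (0.112 and 0.0632), NK1.1+ replicate 2 (0.108 and 0.126) or PD1+ replicate 2 (0.0863 and 0.0661). Gbp3 (adjusted p 0.167 to 0.308), Gbp7 (0.0947 to 0.322) and Irgm1 (0.147 to 0.353) lost theirs in each fit, and the interferon-γ list held 0 to 1 calls. The fit of all 22 libraries ended the calls of Mx1 (0.141) and Gbp7 (0.0591). Fitted with only the 3 CD8α+ populations, 17 type I genes were called lower.

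**Figure D3:**
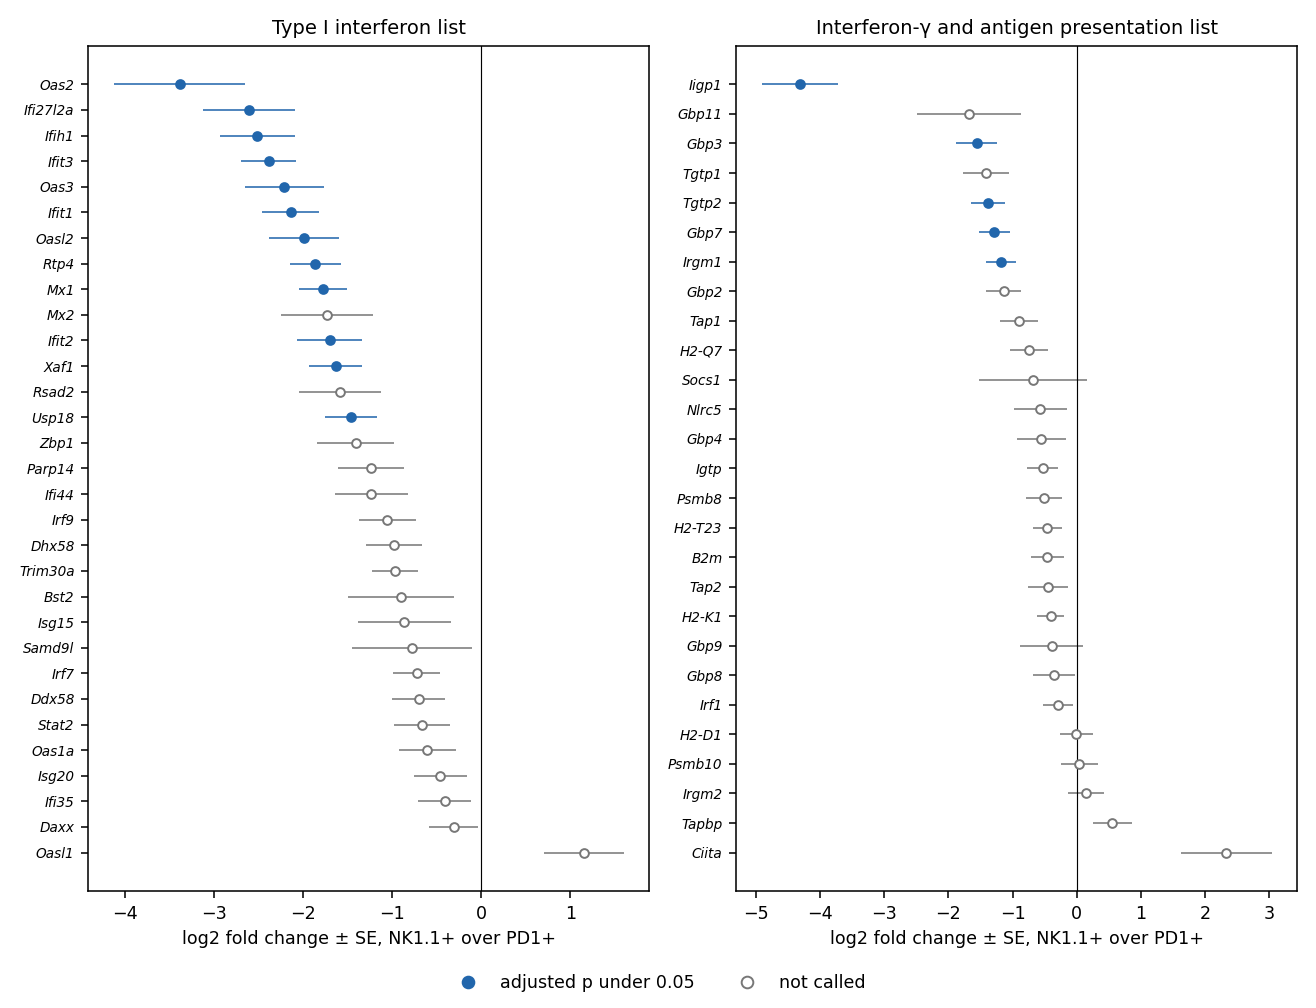
Points are log2 fold changes of NK1.1+ over PD1+ cells with SE bars for 31 of the 32 type I interferon genes (left) and the 27 interferon-γ and antigen presentation genes (right) tested, filled where called. Of the type I genes drawn 30 of 31 lay left of 0 and 12 were called; of the others 5 were called.

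Promoter sequences of 4 called interferon genes that hold the motif named next are shown so that the shared letters can be seen. RefSeq's table for GRCm38.p6 gave a window of 250 bases before to 50 bases after the start for 11 of the 17 called interferon genes. The motif GAAANNGAAA was searched on both strands, overlapping matches included; on the reverse strand it reads TTTCNNTTTC. It was present in 8 of these 11 (72.7%), in 14 of 30 interferon genes tested and not called (46.7%), in 21.1% of all genes called lower, in 5.26% of all genes called higher, in 3.94% of the tested genes with a window and in 3.99% of all 27025 genes with one. The interferon genes are part of the genes called lower, so these shares are not independent. A match is a description of the letters and shows no binding. In the sequences, read in the direction of the gene, capitals mark the matches.
Ifit1, chr19:34640639-34640938, plus strand: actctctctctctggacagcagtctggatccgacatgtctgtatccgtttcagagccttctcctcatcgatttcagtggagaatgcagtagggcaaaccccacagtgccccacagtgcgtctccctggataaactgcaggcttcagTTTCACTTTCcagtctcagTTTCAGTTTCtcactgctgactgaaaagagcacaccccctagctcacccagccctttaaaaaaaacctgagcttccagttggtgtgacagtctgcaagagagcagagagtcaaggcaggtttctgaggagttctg
Ifit3, chr19:34583279-34583578, plus strand: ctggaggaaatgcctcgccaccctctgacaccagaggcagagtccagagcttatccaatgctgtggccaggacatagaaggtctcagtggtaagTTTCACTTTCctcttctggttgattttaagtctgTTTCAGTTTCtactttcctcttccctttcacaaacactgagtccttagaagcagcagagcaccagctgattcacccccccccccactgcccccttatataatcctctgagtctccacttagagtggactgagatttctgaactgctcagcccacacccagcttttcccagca
Irgm1, chr11:48871371-48871670, minus strand: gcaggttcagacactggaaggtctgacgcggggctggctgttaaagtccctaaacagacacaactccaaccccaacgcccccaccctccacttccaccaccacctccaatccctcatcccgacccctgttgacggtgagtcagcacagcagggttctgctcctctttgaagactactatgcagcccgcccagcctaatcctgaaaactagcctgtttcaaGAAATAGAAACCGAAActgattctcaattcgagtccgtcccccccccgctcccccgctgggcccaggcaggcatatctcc
Gbp3, chr3:142559794-142560093, plus strand: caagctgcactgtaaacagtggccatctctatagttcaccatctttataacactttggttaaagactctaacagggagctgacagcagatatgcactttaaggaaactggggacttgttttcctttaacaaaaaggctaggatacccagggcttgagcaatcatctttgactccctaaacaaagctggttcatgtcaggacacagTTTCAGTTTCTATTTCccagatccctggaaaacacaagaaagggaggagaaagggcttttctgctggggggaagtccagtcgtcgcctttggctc
In Ifit1 and Ifit3 the 2 matches stand apart, starting 104 and 85 bases before the start of Ifit1 and 156 and 122 bases before that of Ifit3. In Irgm1 and Gbp3 the 2 matches overlap, starting 30 and 24 bases before the start of Irgm1 and 45 and 39 bases before that of Gbp3. A gene with several windows counts if any of them holds the motif; a second window of Gbp3, chr3:142560106-142560405, holds 0 matches.

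Other lists held few calls, though 18 of 25 immediate early genes had a negative and 7 a positive log2 fold change. Of 36 cell cycle genes, 23 glycolysis genes and 25 immediate early genes 0 were called in each by the fit over 5 populations, with medians of −0.04, −0.04 and −0.42. At an unadjusted p under 0.05 in that fit, 1 and 1 cell cycle genes, 2 and 1 glycolysis genes and 0 and 7 immediate early genes were higher and lower. DESeq2 called 0 and 0, 0 and 1, and 0 and 5. With the 4 libraries alone edgeR called 5 immediate early genes and 1 glycolysis gene lower. With only the 3 CD8α+ populations it called 4 immediate early genes lower, and with all 22 libraries 1. Of 19 survival genes 1 was higher and 1 lower: Bcl2l11, which encodes the BH3-only protein BIM, was at 318 and 307 CPM in NK1.1+ cells and 86.3 and 82.4 CPM in PD1+ cells (1.89 ± 0.30, adjusted p = 0.0103). Pmaip1, which encodes the BH3-only protein NOXA, was at 12.1 and 18.6 CPM in NK1.1+ and 138 and 139 CPM in PD1+ libraries (−3.17 ± 0.39, adjusted p = 0.00322). Both products promote cell death, and their genes differed in opposite directions. Pmaip1 kept its call in all 4 fits without 1 library and Bcl2l11 in none (adjusted p 0.0734 to 0.118). In the TGFβ list 0 of 15 were higher (1 at an unadjusted p under 0.05 and 1 by DESeq2) and 1 lower (Tgif1, with adjusted p 0.0815 to 0.307 without 1 library), and in the adenosine list 0 of 8 were higher (3 and 2) and 1 lower, Dpp4, the CD26 gene, at 24.8 and 22.4 CPM in NK1.1+ and 91 and 137 CPM in PD1+ libraries (−2.27 ± 0.32, adjusted p = 0.00585), a call kept only without PD1+ replicate 1 (adjusted p 0.0108 to 0.0875).

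Outside these lists, genes of largest rise included 3 enzymes. Aoah, a lipase gene that detoxifies lipopolysaccharide, was at 57.7 and 44 CPM in NK1.1+ cells and 0.897 and 0.089 CPM in PD1+ cells (6.56 ± 0.86, adjusted p = 0.00436). Fes, a cytoplasmic tyrosine kinase gene, was at 60 and 73.2 CPM in NK1.1+ and 0.961 and 0 CPM in PD1+ libraries (6.96 ± 0.86, adjusted p = 0.00307). Ddc, the aromatic amino acid decarboxylase gene, was at 69.4 and 56.2 CPM in NK1.1+ and 0.513 and 0 CPM in PD1+ libraries (7.74 ± 0.82, adjusted p = 0.00138). PD1+ libraries were at or under 0.961 CPM for the 3 genes. Genes of largest fall included Nrp1, the neuropilin-1 gene, at 1.42 and 3.09 CPM in NK1.1+ and 117 and 124 CPM in PD1+ libraries (−5.74 ± 0.54, adjusted p = 0.000777). Penk, which encodes the opioid precursor proenkephalin, was at 0.834 and 0 CPM in NK1.1+ and 93.5 and 28.4 CPM in PD1+ libraries (−7.16 ± 1.20, adjusted p = 0.0167). Both genes had at most a few CPM in NK1.1+ libraries. Ttn, the titin gene of muscle, was at 1.67 and 2.76 CPM in NK1.1+ and 394 and 155 CPM in PD1+ libraries (−6.95 ± 0.90, adjusted p = 0.00417). The cochlin gene Coch, of an extracellular protein, had no counts in NK1.1+ cells and 130.4 and 62.1 CPM in PD1+ libraries, at least 769-fold lower (adjusted p = 0.00489). Aoah, Fes, Ddc, Nrp1 and Coch kept their calls in all 4 fits without 1 library, Ttn lost it without NK1.1+ replicate 1 (0.0505), and Penk without NK1.1+ replicate 2 (0.056) or PD1+ replicate 1 (0.166). The fit of all 22 libraries ended the calls of Nrp1 (0.0912), Coch (0.0701) and Penk (0.0522).

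Immunoglobulin genes went in opposite directions. Ighm, the IgM heavy chain gene, was at 954 and 825 CPM in NK1.1+ cells and 219 and 132 CPM in PD1+ cells (2.34 ± 0.36, adjusted p = 0.00863). Igkc, the κ light chain gene, was at 0 and 0.167 CPM in NK1.1+ and 69 and 42.6 CPM in PD1+ libraries, with 2 counts in all in NK1.1+ libraries, so that it was 694 times higher in PD1+ libraries with a counting interval of 192 to 5732 (adjusted p = 0.0244), while Ms4a1 was near 0 as given above. Cd79b, the gene of a B-cell receptor chain, was at 43.4 and 32.4 CPM in NK1.1+ and 2.05 and 3.56 CPM in PD1+ libraries (3.76 ± 0.54, adjusted p = 0.00622). Without PD1+ replicate 1 Cd79b lost its call (0.0633), Ighm lost it without NK1.1+ replicate 1 (0.0591) or PD1+ replicate 2 (0.0893), and Igkc without either NK1.1+ library (0.217 and 0.163) or in the fit of all 22 libraries (0.0659).

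Counts on T-cell receptor variable segments are given as shares per library, with exact 95% binomial intervals that cover counting error only. Counts on 20 Trbv segments totalled 9127 and 7051 in NK1.1+ and 12756 and 9110 in PD1+ libraries. In the NK1.1+ libraries 8 and 8 segments held over 5% of these counts, led by Trbv3 at 13.1% (12.5 to 13.9) and Trbv16 at 25.8% (24.8 to 26.9). In the PD1+ libraries 6 and 5 did, led by Trbv3 at 22.8% (22.1 to 23.6) and Trbv19 at 33.4% (32.4 to 34.3). The leading segment differed between the 2 libraries of each population. In NK1.1+ replicate 1, however, Trbv16 held 1194 counts against 1200 of Trbv3, a share of 13.1% (12.4 to 13.8) that was level with it. Trbv15 was at 7.23 and 7.96% in NK1.1+ and 0.502 and 0.626% in PD1+ libraries, and Trbv29 at 2.24 and 1.72% in NK1.1+ and 17.2 and 10.3% in PD1+ libraries. No rule chose these 2 of the 20 segments. Other segments differed as much between replicates: in the PD1+ libraries Trbv2 was at 17.9 and 1.19% and Trbv31 at 7.57 and 0.110%. Counts on 33 Trav segments totalled 1545 and 2002 in NK1.1+ and 3151 and 2365 in PD1+ libraries, with 7 and 4 segments over 5% in NK1.1+ and 4 and 5 in PD1+ libraries. The leading one was Trav16n at 10.6% (9.12 to 12.3) and Trav19 at 37.8% (35.6 to 39.9) in NK1.1+ libraries, and Trav16d-dv11 at 42.7% (40.9 to 44.4) and Trav16n at 32.9% (31.0 to 34.8) in PD1+ libraries. At this 5% cut the number of α segments overlapped between the populations, unlike that of β segments. The number of segments with any count did the reverse. It was 18 and 18 in NK1.1+ and 19 and 17 in PD1+ libraries for Trbv. For Trav it was 33 and 32 in NK1.1+ and 30 and 23 in PD1+ libraries. Segments share sequence, so reads may be split among them.

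**Figure D4:**
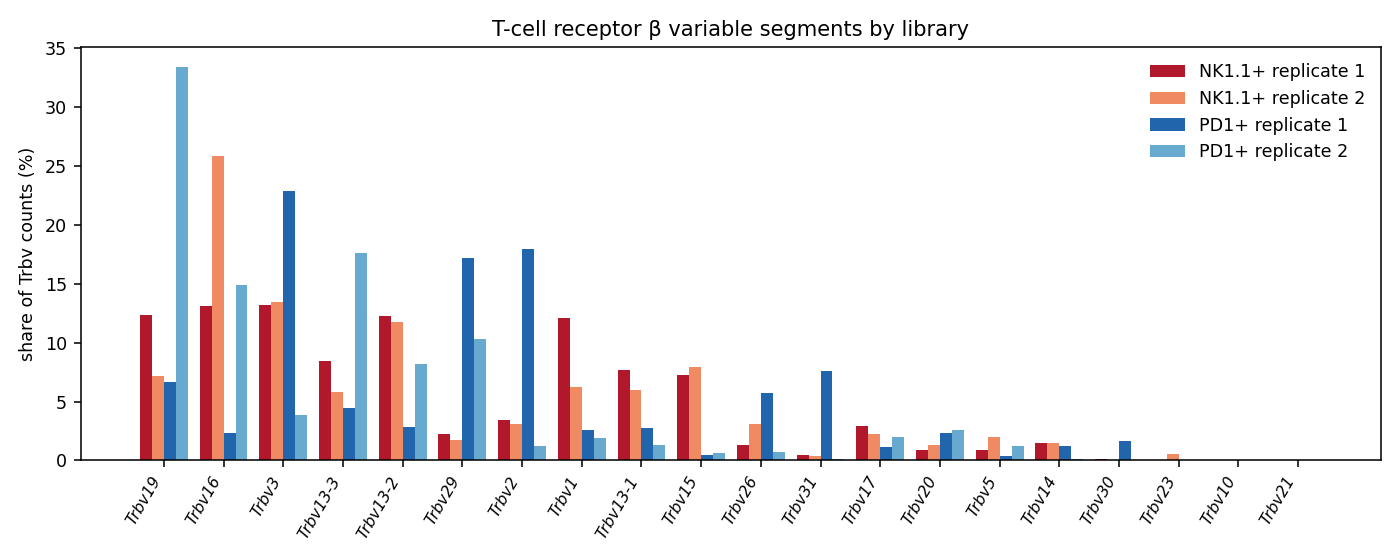
Bars give the share of Trbv counts (%) of each segment in the 2 NK1.1+ libraries (reds) and the 2 PD1+ libraries (blues). NK1.1+ libraries spread over 8 segments above 5% each and PD1+ libraries over 6 and 5, with Trbv19 at 33.4% in PD1+ replicate 2.

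A gamma chain segment, named here after its values were seen, also differed. Tcrg-V4 was at 68.6 and 142 CPM in NK1.1+ cells and 1.35 and 0.445 CPM in PD1+ cells (6.82 ± 0.64, adjusted p = 0.000777), with no overlap and a call in all 4 fits without 1 library, although both sorts required the αβ receptor.

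A related contrast was looked at in 4 other libraries. The second set held TCRab+ILTC1 cells, a name that the labels do not expand, and TCRb+CD8a+NK1.1- cells from the same kind of tumours; their titles name no PD1 gate. There 88 of 16828 genes (0.523%) were called, 41 (0.244%) higher and 47 (0.279%) lower in TCRab+ILTC1 cells; without TCRab+ILTC1 replicate 1 or 2 the count was 840 and 11, and without TCRb+CD8a+NK1.1- replicate 1 or 2 it was 36 and 11. Of the 172 genes called higher in NK1.1+ over PD1+ cells, 158 (91.9%) had a positive log2 fold change in the second set, where 46.6% of all genes did, and 29 were called higher. Of the 160 called lower, 159 (99.4%) were negative, where 52.8% of all genes were, and 11 were called lower. In the second set the 2 pairs of libraries did not overlap in 42.7% of all genes.

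Markers of other cell types differed in this contrast too, and their part in it was not tested. The 21 epithelial genes summed to 1027 and 896 CPM in TCRab+ILTC1 and 2497 and 4410.0 CPM in TCRb+CD8a+NK1.1- libraries, with 7 and 11 genes at 0 in TCRab+ILTC1 and 2 and 3 in TCRb+CD8a+NK1.1- libraries. The 23 myeloid genes summed to 2225 and 254 CPM in TCRab+ILTC1 and 2629 and 2756 CPM in TCRb+CD8a+NK1.1- libraries, with 1 and 11 at 0 in TCRab+ILTC1 and 0 and 1 in TCRb+CD8a+NK1.1- libraries, so that the 2 TCRab+ILTC1 libraries stood apart from each other. The 16 stromal genes summed to 30.3 and 10.6 CPM in TCRab+ILTC1 and 102 and 217 CPM in TCRb+CD8a+NK1.1- libraries (9 and 13 at 0, against 4 and 8). The 9 erythroid and platelet genes summed to 0.855 and 0 CPM in TCRab+ILTC1 and 59.7 and 28.0 CPM in TCRb+CD8a+NK1.1- libraries (5 and 9 at 0, against 2 and 4). The 18 B-cell genes were the higher ones in TCRab+ILTC1 libraries, at 1066 and 1493 CPM summed, against 525 and 581 CPM in TCRb+CD8a+NK1.1- libraries (7 and 13 at 0, against 2 and 11), as were the 8 invariant NKT and MAIT genes, at 197 and 203 CPM, against 101 and 115 CPM (1 and 2 at 0, against 0 and 2).

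Cd8b1 was at 286 and 189 CPM in TCRab+ILTC1 and 1433 and 919 CPM in TCRb+CD8a+NK1.1- libraries (−2.31 ± 1.19, adjusted p = 0.423), again lower in both TCRab+ILTC1 libraries. Tyrobp was at 469 and 516 CPM in TCRab+ILTC1 and 24.1 and 53.2 CPM in TCRb+CD8a+NK1.1- libraries (3.67 ± 0.39, adjusted p = 0.0129). Txk was at 382 and 541 CPM in TCRab+ILTC1 and 89.6 and 129 CPM in TCRb+CD8a+NK1.1- libraries (2.08 ± 0.31, adjusted p = 0.0341). For Tyrobp and Txk both TCRab+ILTC1 libraries were the higher ones. Gpr183, lower in both sets, was at 21.4 and 16.6 CPM in TCRab+ILTC1 and 121 and 122 CPM in TCRb+CD8a+NK1.1- libraries (−2.67 ± 0.36, adjusted p = 0.0228). Ifit3 was at 107 and 53.2 CPM in TCRab+ILTC1 and 253 and 283 CPM in TCRb+CD8a+NK1.1- libraries (−1.74 ± 0.39, adjusted p = 0.093). Il12rb2 was at 375 and 549 CPM in TCRab+ILTC1 and 51.3 and 93.1 CPM in TCRb+CD8a+NK1.1- libraries (2.68 ± 0.58, adjusted p = 0.0804). Both were in the direction of the first set and were not called. Satb1, at 52.8 and 24.2 CPM in TCRab+ILTC1 and 34.8 and 70.3 CPM in TCRb+CD8a+NK1.1- libraries, did not repeat its first-set direction (−0.45 ± 0.44, adjusted p = 0.695). Pdcd1 was at 90 and 77.4 CPM in TCRab+ILTC1 and 777 and 609.9 CPM in TCRb+CD8a+NK1.1- libraries (−3.05 ± 0.52, adjusted p = 0.0427), without overlap. Of 26 immediate early genes tested in the second set 4 were called lower and 0 higher (median −1.14). Over all genes tested there 0.279% were called lower.

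**Figure D5:**
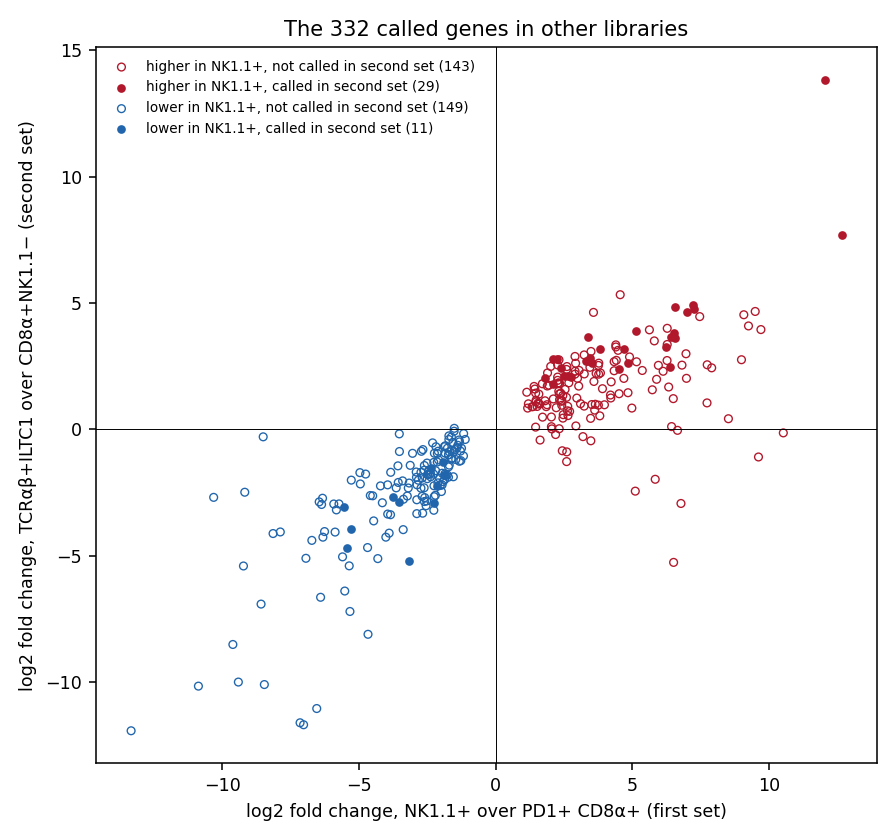
Each point is 1 of the 332 genes called between NK1.1+ and PD1+ cells, with that log2 fold change on the x axis and the log2 fold change of TCRab+ILTC1 over TCRb+CD8a+NK1.1- cells, from other libraries, on the y axis; filled points were called there too (29 higher and 11 lower). Fitted values of genes with 0 counts in a population depend on the fit's prior count and are no measure of size. Of the red points 158 of 172 lie above 0, and of the blue points 159 of 160 lie below it.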

How the data were processed

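RNA-seq counts per gene were compared in 4 of 22 libraries of sorted cells. The authors deposited 1 table of raw read counts per Ensembl gene with no normalization; per the submitters' processing notes, BWA 0.7.5a, Picard and HTSeq were used with the builds mm9 and NCBIM37, and no source used here gives the strand setting of the counting. Of 37620 entries 32897 were matched to a symbol, holding 99.0% of all counts.

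Counts of the 10 libraries of the first set were fitted together in edgeR 4.0.16 (R 4.3.3) with filterByExpr, TMM scaling, 1 mean per population and the quasi-likelihood test with Benjamini-Hochberg adjustment over all genes tested. The SE is the log2 fold change divided by the root of F. The 12 libraries of the second set were fitted the same way. A fold against a population with no count is a bound from 3 counts over its 2 libraries. Replicate libraries of NK1.1+ and of PD1+ cells differed beyond counting noise. DESeq2 1.42.0 and the other fits are alternatives, the model was tested on simulated data, and Python 3.11.15 drew shares and figures.

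Genes were named by rule: 30 key genes, then 15 called genes each way, ranked by size of change among those without overlap that reached 20 CPM in 1 population, and, in each of 29 lists, up to 6 called genes each way by size of change and the 2 of highest mean CPM that were not called; not every gene picked is printed. Bhlhe40, Klrd1, Lyn, Vav3, Mx1, Rtp4, Lyz2, Zbtb16 and Tcrg-V4 were added after their values were seen. Members and lists were chosen with earlier results of these data known. Some genes are not reported here.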

Additional observations from a re-analysis of the deposited data

How the results depend on the processing

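Every alternative listed was run, on edgeR's quasi-likelihood test unless DESeq2 is named. Between NK1.1+ and PD1+ cells, where 332 genes were called (172 higher and 160 lower), DESeq2 called 874 (449 and 425), no filter on low counts 838 (407 and 431), the 3 CD8α+ populations alone 598 (269 and 329), the 4 libraries alone 717 (318 and 399) and a fit of all 22 libraries 221, of which 81 were lower. Leaving out 1 library gave 116 to 170 calls, 69 to 90 higher and 35 to 80 lower; the remaining library is then assumed to vary like the other populations. Of the 332 genes, 332 were also called by DESeq2, 332 without a filter, 325 with the 3 CD8α+ populations, 329 with the 4 libraries and 201 with all 22 libraries. Scaling by library totals alone ended the calls of Bhlhe40, Cxcr5, Epcam, Gbp3, Irgm1, Lat, Rora, Tnfsf11, Tox2 and Ubash3a, the 3 CD8α+ populations alone that of Epcam, and the replicate block that of Tnfsf11, while under the block Prf1 was called lower (adjusted p = 0.0174) and Gzma and Cdh1 higher. Each fit gave the genes followed singly that it tested the direction of the report (Zbtb16 was not tested with the 3 CD8α+ populations or the 4 libraries alone); the cause of the differing counts was not tested.

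In the second set, where 88 genes were called (41 and 47), DESeq2 called 1368 (318 and 1050), no filter 1244 (247 and 997), all 22 libraries 282 (115 and 167), and the 4 libraries alone 0 (0 and 0) by edgeR, with 1761 at an unadjusted p under 0.05. Leaving out 1 library gave 11 to 840 calls, 8 to 139 higher and 1 to 701 lower.

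A replicate block, with the titles' replicate number as a term, called 498 genes between NK1.1+ and PD1+ cells (261 higher), 330 of the 332 among them, and 99 in the second set. Deviations of NK1.1+ and PD1+ libraries of the same number correlated at 0.227 across genes, which are not independent replicates, and the labels do not say that a number marks a shared animal or day. Depth limited low genes: a gene with no count in a library could still have up to 0.192 to 0.267 CPM.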
